A study of Mus musculus with 12 samples.

Results

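Cd9 and 6 other genes of the tetraspanin family (Cd63, Cd81, Cd82, Cd151, Cd53 and Cd37) were followed in mouse livers under 2 diets, low and high in fat. These are 7 of 28090 gene names on the arrays. They have 9 of 41174 probes, and 7 of those 9 probes, 1 for each gene, passed the filter on dim probes. Cd9 was chosen by its measured array signals, which fell on the high-fat diet in wild-type liver, and the other genes because they belong to the same family. Its values in wild-type livers are therefore a description, and so are those of every comparison that uses the wild-type arrays. The difference between the diets in Cyp1b1 null livers comes from arrays that had no part in the choice, and there Cd9 was tested; the SE and p of that test use a spread estimated over all 12 arrays, the wild-type ones included.

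Gene expression was measured on 12 two-colour Agilent arrays in 4 groups of 3: C57BL6/J wild-type mice and Cyp1b1 null mice, each fed low or high fat. The gene deleted in the null mice codes for a P450 enzyme of steroid, retinoid and polycyclic hydrocarbon oxidation. All mice were male, went onto a diet with 10% or 60% fat at weaning at 3 weeks of age, and were killed at 14 weeks. Each array carries a sample described as 3 pooled samples, labelled with Cy3, against a common pool of wild-type low-fat liver labelled with Cy5. A level is given as the log2 ratio of the sample over that reference pool, so a value of 0 is the level of the pool. The labels do not say that the 3 samples of a group were separate pools of animals, and the spread behind each p-value is that between these arrays, which may be technical.

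Per array, 18375 to 23439 probes had a sample signal well above background. Both extremes were in the wild-type low-fat group, the lowest on array 2 and the highest on array 1. A probe for Cyp1b1, A_51_P255456, read between 0.65 and 1.68 on the 6 arrays labelled null and between -1.11 and 0.15 on the 6 wild-type arrays, and a second probe exceeded background clearly on just 2 of the 12. The sources used here do not place either probe inside or outside the deletion, so these probes do not check the labels, and null means labelled null throughout. The tissue label names liver hepatocytes. All 7 hepatocyte markers with a probe were well above background on all 12 arrays, but so were 11 of 12 Kupffer cell and macrophage markers, 7 of 7 endothelial markers and 6 of 6 pan-leukocyte markers. Of 6 B cell markers, 2 were well above background on all 12 arrays and 2, Cd79a and Pax5, on none. In such bulk samples, fewer cells of a type and less RNA per cell cannot be told apart.

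Tetraspanins are small proteins that cross the membrane repeatedly and gather integrins, immunoglobulin-domain proteins, proteases and receptors into patches of the cell surface. Several of them, Cd9, Cd63 and Cd81 among them, are also carried on the vesicles that cells release, and serve as markers of those vesicles. In liver they are found on hepatocytes as well as on endothelial, stellate, bile duct and immune cells, and Cd81 is known there as a receptor for hepatitis C virus in humans.

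The array reads each gene with a probe of 60 bases, and the first 30 bases of the probes behind the main results identify what was measured. Both Cd9 probes are shown because they gave different signals, and those for Cd63 and Cd151 because their levels in wild-type low-fat livers also stood above the other groups.

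Cd9, A_51_P320852: cctgcaatgaaaggtactatatttgccaga

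Cd9, A_51_P323341: aggtgctaatctgagcagttctactttgct

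Cd63, A_51_P511810: tgtggggcctgcaaggagaactactgtctc

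Cd151, A_51_P343252: atgttcctgacactgtctccttttggagca

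The first Cd9 probe and the Cd63 and Cd151 probes carry RefSeq transcript names in the array's annotation. The second Cd9 probe is annotated to a cDNA clone and did not rise well above background on any array, so all values for Cd9 come from the first.

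The 250 bases before the start of Cd9, Cd63 and Cd81 are shown because Cd9 and Cd63 had the largest differences between groups and Cd81, the brightest of the 7 probes, had small ones. They are RefSeq sequences of build GRCm38.p6, on the strand of the gene, with matches to the GC box GGGCGG in capitals.

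Cd9, chr6:125494761-125495010, minus strand: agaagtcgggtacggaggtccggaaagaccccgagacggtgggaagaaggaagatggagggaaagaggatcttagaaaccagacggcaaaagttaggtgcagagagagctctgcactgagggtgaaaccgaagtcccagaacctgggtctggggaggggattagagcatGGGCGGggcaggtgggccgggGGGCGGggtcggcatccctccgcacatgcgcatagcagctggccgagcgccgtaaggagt

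Cd63, chr10:128909095-128909344, plus strand: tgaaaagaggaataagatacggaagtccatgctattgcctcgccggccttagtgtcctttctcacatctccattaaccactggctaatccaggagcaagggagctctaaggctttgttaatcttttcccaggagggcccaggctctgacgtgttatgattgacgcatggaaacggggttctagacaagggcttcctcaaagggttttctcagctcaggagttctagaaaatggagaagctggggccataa

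Cd81, chr7:143052500-143052749, plus strand: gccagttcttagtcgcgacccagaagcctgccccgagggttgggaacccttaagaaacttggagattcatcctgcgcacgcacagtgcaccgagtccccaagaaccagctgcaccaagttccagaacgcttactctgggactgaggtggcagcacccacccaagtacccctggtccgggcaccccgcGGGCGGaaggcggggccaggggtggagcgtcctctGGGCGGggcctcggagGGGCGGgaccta

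The Cd9 and Cd81 windows each hold 16 CpG dinucleotides, and the Cd63 window holds 6. GGGCGG, searched on both strands, occurs 2 times before Cd9, 3 times before Cd81 and not in the Cd63 window; it occurs in 32.7% of 32851 RefSeq promoter windows of the same length. Neither TATAAA, found in 12.4% of those windows, nor the peroxisome proliferator response element (a direct repeat of its half-site with 1 base between), found in 0.0335%, occurs in the 3 windows. These are matches of letters and no measure of binding.

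Cd9, which associates at the cell surface with integrins and immunoglobulin-domain proteins, was highest in wild-type low-fat livers, intermediate in null low-fat livers and lowest in both high-fat groups. In wild-type low-fat livers its log2 ratio was -0.09, -0.85 and -0.83 on arrays 1, 2 and 3. Null low-fat livers read -1.29, -1.41 and -1.57. These groups do not overlap, and array 1 of the wild-type group stands above its other arrays. Array 1 lies near the level of the reference pool. Arrays 2 and 3 lie below it, although the pool is labelled as wild-type low-fat liver too. Wild-type high-fat livers read -2.53, -2.42 and -2.31, and null high-fat livers -2.09, -2.31 and -2.42. Arrays of both high-fat groups overlap with each other and lie below every low-fat array.

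**Figure D1:**
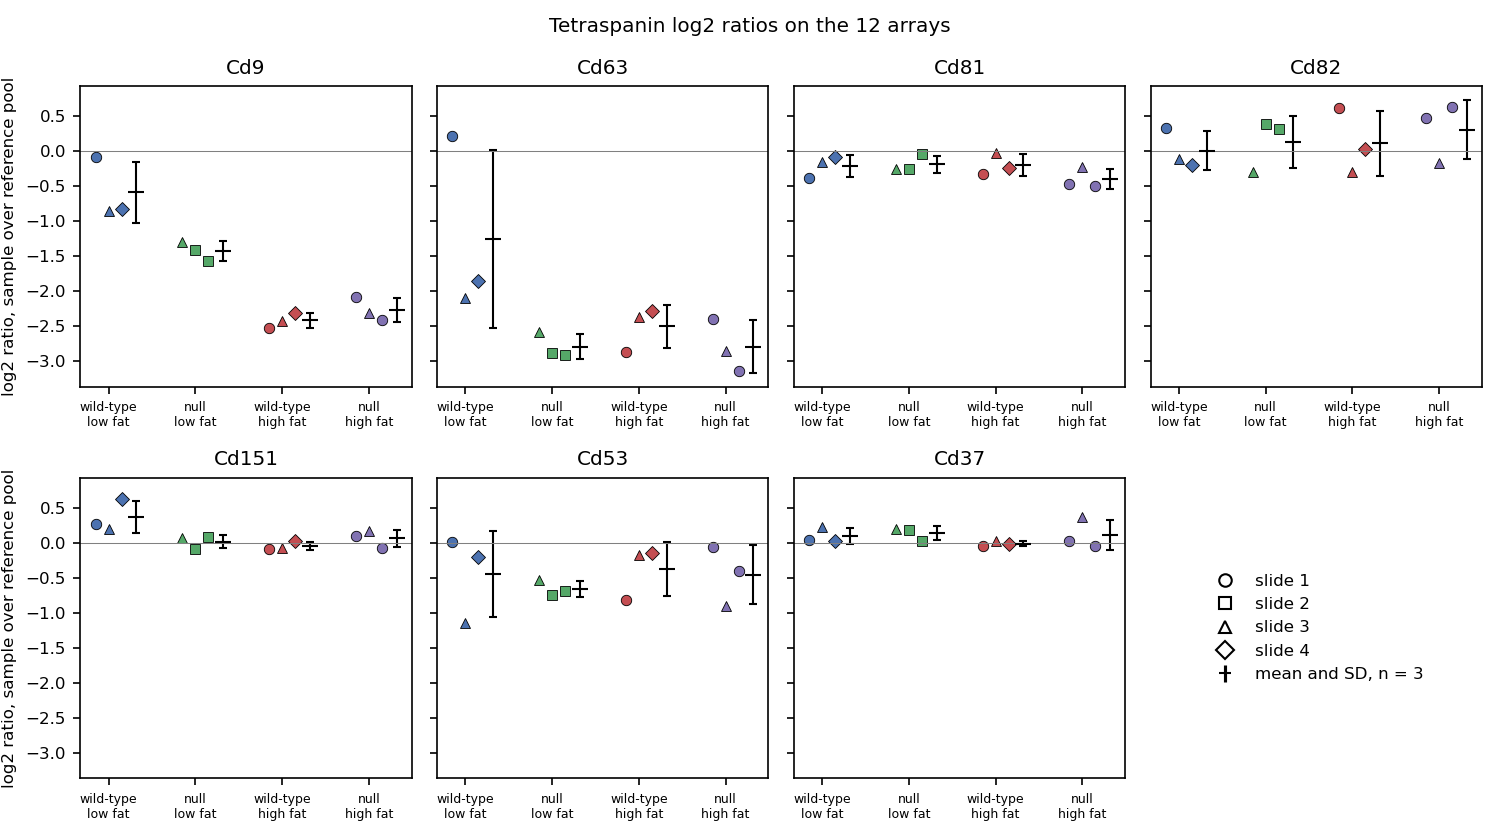
The log2 ratio of sample over reference pool is plotted for each of the 7 tetraspanins on each of the 12 arrays, with 1 point per array, the marker shape giving the slide, and the mean and SD of each group (n = 3) at its right. The Cd9 values fall from -0.09 on a wild-type low-fat array to -2.53 on a wild-type high-fat array. The points of Cd81, Cd82 and Cd37 overlap between most groups.

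The group means of Cd9 were -0.59 ± 0.43 in wild-type low-fat, -1.42 ± 0.14 in null low-fat, -2.27 ± 0.17 in null high-fat and -2.42 ± 0.11 in wild-type high-fat livers (SD, n = 3 each). The last pair in that order do not differ beyond their spread. Before normalisation the sample channel read 4827, 1550 and 1755 intensity units in the low-fat wild-type group. In null livers at low fat it read 912, 1439 and 1511. It ranged from 463 to 571 on the 6 high-fat arrays. The wild-type low-fat mean of 2711 is thus carried by array 1, but the low-fat groups do not overlap in the sample channel. The reference channel, which holds the same pool on every array, ranged from 870 to 7280 units. Before normalisation the ratio of mean signals ranged widely within a group, from -1.90 to 1.83 in wild-type low-fat livers and from -3.88 to -1.46 in wild-type high-fat livers, and those groups overlapped.

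In wild-type livers the high-fat diet went with a Cd9 level lower by 1.83 on the log2 scale (a difference of -1.83, SE 0.21, 95% interval -2.28 to -1.38), or 3.55-fold. This difference was the 12th lowest of 14911 genes. As this is the comparison that chose Cd9, it carries no test here. Of the 7 tetraspanins 1, Cd9 itself, lay past limma's adjusted threshold of 0.05 in it, and it was the only such gene of all (0.00671%), so nothing is read from that count. With the replicate number as a block, which in wild-type livers also pairs arrays of a slide, the count was 0 and the Cd9 difference -1.83 (SE 0.20). The difference had the same sign on each slide that held both diets: -2.44 on slide 1, -1.57 on slide 3 and -1.48 on slide 4.

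In null livers, where Cd9 was tested, its level on the high-fat diet was lower by a log2 difference of -0.85 (SE 0.21, 95% interval -1.30 to -0.39), or 1.80-fold, and all 3 high-fat arrays lay below all 3 low-fat arrays. This did not pass after adjustment over 14911 genes (limma, unadjusted p = 0.00167, adjusted p = 1). Only 0.785% of genes had a lower difference. Slide 3 alone gave -1.01, and the first scan, with low-fat arrays on slide 2 and high-fat arrays on slide 1, gave -0.76. Over 25 other settings, including leaving out each array in turn, the difference stayed between -1.26 and -0.77, and the lowest adjusted p from limma was 0.0664, in the sample channel alone. Without wild-type low-fat array 1, which enters this test through the spread alone, the SE was 0.14 and the limma adjusted p = 0.247.

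Among the 7 tetraspanins in null livers, 0 passed limma's adjusted threshold and 1, Cd9, had an unadjusted p under 0.05, against 0.00671% and 1.91% of all genes. Cd9 was also the only one of the 7 whose arrays did not overlap between the diets; 2.53% of genes were lower and 2.3% higher in this way. The median difference of the 7 members was -0.00, beside 0.02 for all genes.

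**Figure D2:**
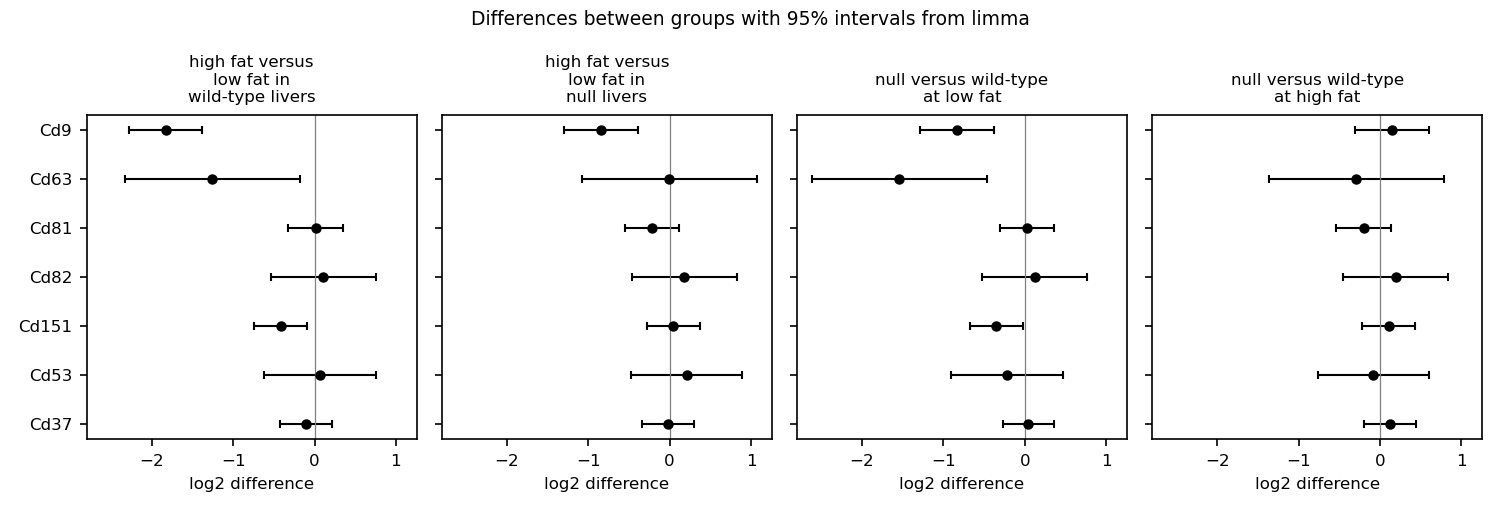
The panels give the log2 difference of each tetraspanin in 4 comparisons, as a point with its 95% interval from limma. The interval of Cd9 lies below 0 in both diet comparisons and in the genotype comparison at low fat, from -2.28 to -1.38, -1.30 to -0.39 and -1.29 to -0.38, and spans 0 at high fat; only the second of these was a test of Cd9.

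Between the genotypes, Cd9 was lower in null than in wild-type livers at low fat (difference -0.84, SE 0.21, 95% interval -1.29 to -0.38) with no overlap of arrays, and differed by 0.15 at high fat (interval -0.31 to 0.60), where arrays overlapped. At low fat the difference was -0.44 on slide 3 and -1.40 in the first scan. Without wild-type low-fat array 1 it was -0.59, and with arrays only centred on their median, a setting that moved the median of all genes by 0.33, it was -0.28. The diet difference in null livers was less negative than that in wild-type livers by 0.98 (SE 0.29, interval 0.34 to 1.62), and by 0.73 without that array. These values reuse the wild-type arrays and carry no test. Each group enters more than 1 of these comparisons, so the differences are not independent of each other.

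Cd63, the tetraspanin of late endosomes, lysosomes and released vesicles, had its highest value on a single array. Wild-type low-fat livers read 0.21, -2.10 and -1.86, and wild-type high-fat livers -2.86, -2.37 and -2.28. Null livers read -2.58, -2.88 and -2.91 at low fat and -2.39, -2.86 and -3.14 at high fat. The first wild-type low-fat array was 2.20 higher than arrays 2 and 3 on average, and those in turn lay above the arrays of every other group. The remaining 11 arrays read -1.86 or lower, well below the reference pool, although the pool is labelled as wild-type low-fat liver too.

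The diet difference of Cd63 in wild-type livers was -1.25 (SE 0.49, 95% interval -2.33 to -0.18), a description, since this is the comparison the choice rested on. It was -3.08 on slide 1, -0.26 on slide 3 and -0.42 on slide 4, and -0.52 without wild-type low-fat array 1. In null livers Cd63 did not differ detectably between the diets (-0.00, interval -1.08 to 1.07, limma adjusted p = 1). Arrays of the null diets overlapped.

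At low fat, Cd63 was lower in null than in wild-type livers by a difference of -1.54 (SE 0.49, interval -2.61 to -0.47), which did not pass after adjustment (limma, unadjusted p = 0.00904, adjusted p = 0.497). The arrays did not overlap. Without wild-type low-fat array 1 the difference was -0.81 (adjusted p = 0.316), on slide 3 alone it was -0.48, and in the first scan, whose only wild-type low-fat array is that one, it was -3.11. At high fat the genotypes differed by -0.29 (interval -1.36 to 0.78, limma adjusted p = 1).

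**Figure D3:**
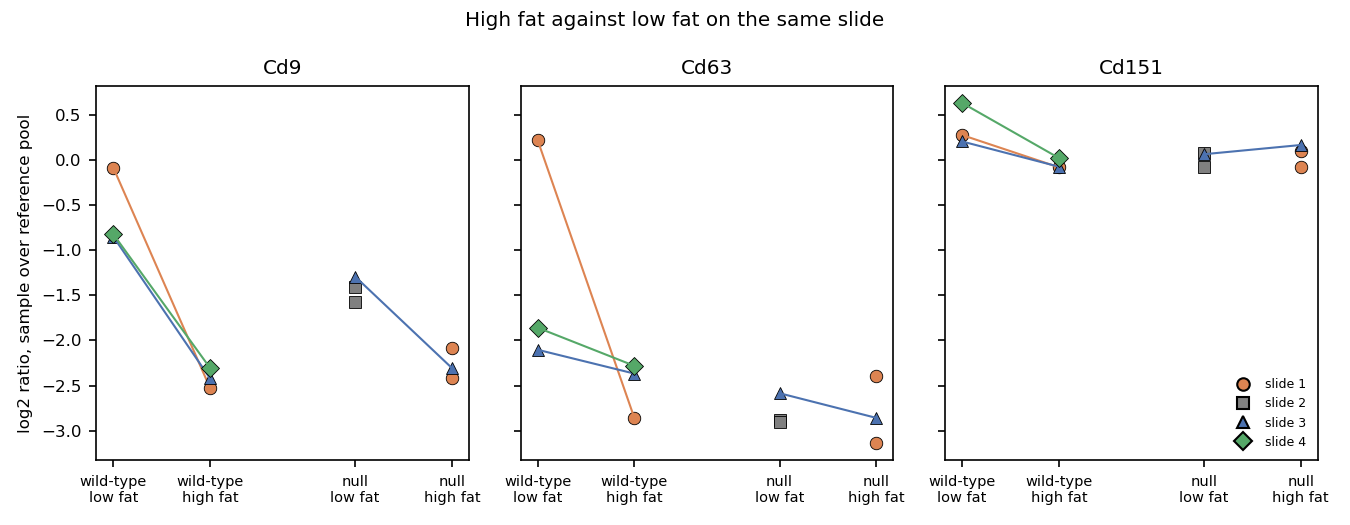
The log2 ratios of Cd9, Cd63 and Cd151 are plotted per array, with a line joining the low-fat and high-fat array of 1 genotype that shared a slide. Cd9 falls along all 4 lines, with differences of -2.44, -1.57 and -1.48 in wild-type and -1.01 in null livers, whereas the Cd63 fall of -3.08 on slide 1 is far steeper than on the other slides.

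The first wild-type low-fat array was also higher in most cell type marker lists. Against arrays 2 and 3 on average it was higher by 1.14 over 11 Kupffer cell and macrophage markers, 1.18 over 7 stellate markers, 1.03 over 7 hepatocyte markers and 0.73 over 6 pan-leukocyte markers. The bile duct, neutrophil, endothelial, platelet and megakaryocyte, and B cell lists were also higher, by 0.88, 0.88, 0.68, 0.29 and 0.125. For 2 adipocyte markers it was lower, at -1.07, and for the T and NK cell markers at -0.22. Cd53 was higher there by 0.68, Cd9 by 0.75 and Cd82 by 0.48. Cd151, Cd81 and Cd37 were lower there, at -0.14, -0.26 and -0.09. Arrays 2 and 3 also differed from each other, so array 1 was not the only one apart. On arrays 1, 2 and 3 the Kupffer cell and macrophage mean was 0.287, -1.515 and -0.193. The pan-leukocyte mean was 0.275, -0.767 and -0.139, and the bile duct mean 0.032, -0.26 and -1.435. The part of these markers in the tetraspanin values was not tested.

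Cd151, which binds the laminin receptors among the integrins, was highest in wild-type low-fat livers, at 0.27, 0.20 and 0.63. Wild-type high-fat livers read -0.08, -0.08 and 0.02, null low-fat livers 0.06, -0.09 and 0.07, and null high-fat livers 0.10, 0.16 and -0.08. The wild-type low-fat arrays lie above all 9 others, which overlap with each other.

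The diet difference of Cd151 in wild-type livers was -0.41 (SE 0.15, 95% interval -0.74 to -0.09), with values of -0.36, -0.28 and -0.61 on slides 1, 3 and 4, and was -0.14 in the sample channel alone. In null livers it was 0.04 (interval -0.28 to 0.37, limma adjusted p = 1). At low fat Cd151 was lower in null than in wild-type livers by -0.35 (interval -0.68 to -0.02), which did not pass after adjustment (limma, unadjusted p = 0.0378, adjusted p = 0.665) and turned to 0.20 with arrays only centred on their median. The diet differences of the genotypes differed by 0.46 (SE 0.21, limma, unadjusted p = 0.0515, adjusted p = 1).

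Cd81, a tetraspanin of many cell types that is also found on released vesicles, had the brightest probe, and its ratios lay between -0.50 and -0.02 on all 12 arrays. It read -0.39, -0.16 and -0.09 in wild-type low-fat, -0.33, -0.02 and -0.24 in wild-type high-fat, -0.26, -0.25 and -0.05 in null low-fat and -0.47, -0.23 and -0.50 in null high-fat livers. Its diet difference was 0.01 in wild-type livers (interval -0.32 to 0.35) and -0.21 in null livers (interval -0.55 to 0.12, limma adjusted p = 1), the latter turning to 0.16 in the sample channel alone. A difference of the size seen for Cd9 in null livers lies outside the Cd81 interval there.

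Cd82, a tetraspanin known as a suppressor of metastasis, varied with the slide more than with the group. It read 0.33, -0.11 and -0.20 in wild-type low-fat, 0.61, -0.30 and 0.03 in wild-type high-fat, -0.30, 0.39 and 0.31 in null low-fat and 0.47, -0.17 and 0.63 in null high-fat livers. The arrays of slides 1 and 2 all lay above those of slides 3 and 4. Its differences between groups were from 0.11 to 0.20 in the 4 comparisons, with arrays overlapping in each.

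Cd53 and Cd37 are tetraspanins of leukocytes, and both were dim. Cd53 read 0.01, -1.14 and -0.21 in wild-type low-fat, -0.81, -0.17 and -0.14 in wild-type high-fat, -0.54, -0.75 and -0.70 in null low-fat and -0.06, -0.91 and -0.40 in null high-fat livers. Its mean sample signal was between 86.1 and 174.9 units. Groups overlapped in every comparison, and the differences lay between -0.22 and 0.21. Over the 12 arrays the Cd53 ratio had a Pearson r of 0.81 with the mean of the Kupffer cell and macrophage markers, 0.73 with that of the B cell markers, and 0.72 with those of the endothelial and the pan-leukocyte markers. Cd63 had an r of 0.80 with the pan-leukocyte mean. These values are across arrays that share a reference pool. Cd53, Cd63 and these marker means were all highest on wild-type low-fat array 1, and their r without that array was not computed.

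Cd37, known from B cells, was well above background on 1, 3, 3 and 2 of 3 arrays in the low-fat and high-fat wild-type groups and the low-fat and high-fat null groups. All its ratios lay between -0.05 and 0.36, and its mean signal was between 59.0 and 72.9 units. A second Cd37 probe did so on 1 of 12 arrays and was not measured. In wild-type livers the high-fat arrays of Cd37 lay just below the low-fat ones, with a difference of -0.11 (interval -0.42 to 0.21).

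Counted over the family in wild-type livers, 4 of 7 members (Cd9, Cd63, Cd151 and Cd37) had high-fat arrays that all lay below the low-fat arrays, where 3.69% of genes did, and 3 of 7 had an unadjusted p under 0.05, where 4.02% did; the choice rested on this comparison, so nothing is read from these counts. Between genotypes, Cd9 was left out of the counts. At low fat 0 of 6 other members passed limma's adjusted threshold and 2, Cd63 and Cd151, had an unadjusted p under 0.05, against 0.0201% and 7.2% of genes. Those 2 were lower with no overlap of arrays, as were 4.52% of genes, and 0 of 6 were higher in this way, where 4.81% of genes were. At high fat 0 of 6 passed by limma, before or after adjustment, against 2.58% and 0.0134% of genes, and 0 of 6 had arrays with no overlap, where 4.09% of genes were lower and 3.65% higher with no overlap. For the interaction of genotype and diet 0 of 6 passed by limma either way, against 0.899% and 0% of genes.

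The family has other members named Tspan, uroplakins and the photoreceptor tetraspanins, of which 17 of 24 listed genes were measured. Of these, 0 passed limma's adjusted threshold in any of the 5 comparisons, and 2, 0, 2, 1 and 0 had an unadjusted p under 0.05 in the diet comparisons of wild-type and null livers, the genotype comparisons at low and high fat, and the interaction, where 4.02%, 1.91%, 7.2%, 2.58% and 0.899% of all genes did. Their median differences were -0.10, 0.05, -0.22, -0.01 and 0.15 in that order, beside 0.01, 0.02, -0.01, 0.00 and 0.01 for all genes.

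Tspan4 came closest to the pattern of Cd9. It read 0.17, -0.40 and -0.65 in wild-type low-fat, -1.48, -1.23 and -0.89 in wild-type high-fat, -0.60, -0.70 and -1.02 in null low-fat and -0.96, -1.37 and -0.91 in null high-fat livers. In wild-type livers its high-fat arrays all lay below its low-fat arrays, with a difference of -0.91 (SE 0.24). That comparison chose Cd9, so the Tspan4 value there is a description and carries no test. In null livers the Tspan4 difference was -0.31.

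Tspan33 went the other way between genotypes. It read -0.33, 0.03 and -0.10 in wild-type low-fat and 0.54, 0.38 and 0.39 in null low-fat livers. The difference of 0.57 did not pass (limma, unadjusted p = 0.00286, adjusted p = 0.355). At high fat it was 0.45 (limma, unadjusted p = 0.0113) and did not pass after adjustment either. Tspan13 was lower in null low-fat livers, by a difference of -0.71 (limma, unadjusted p = 0.0155, adjusted p = 0.559). All 3 null arrays of either gene lay beyond all 3 wild-type arrays at low fat.

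**Figure D4:**
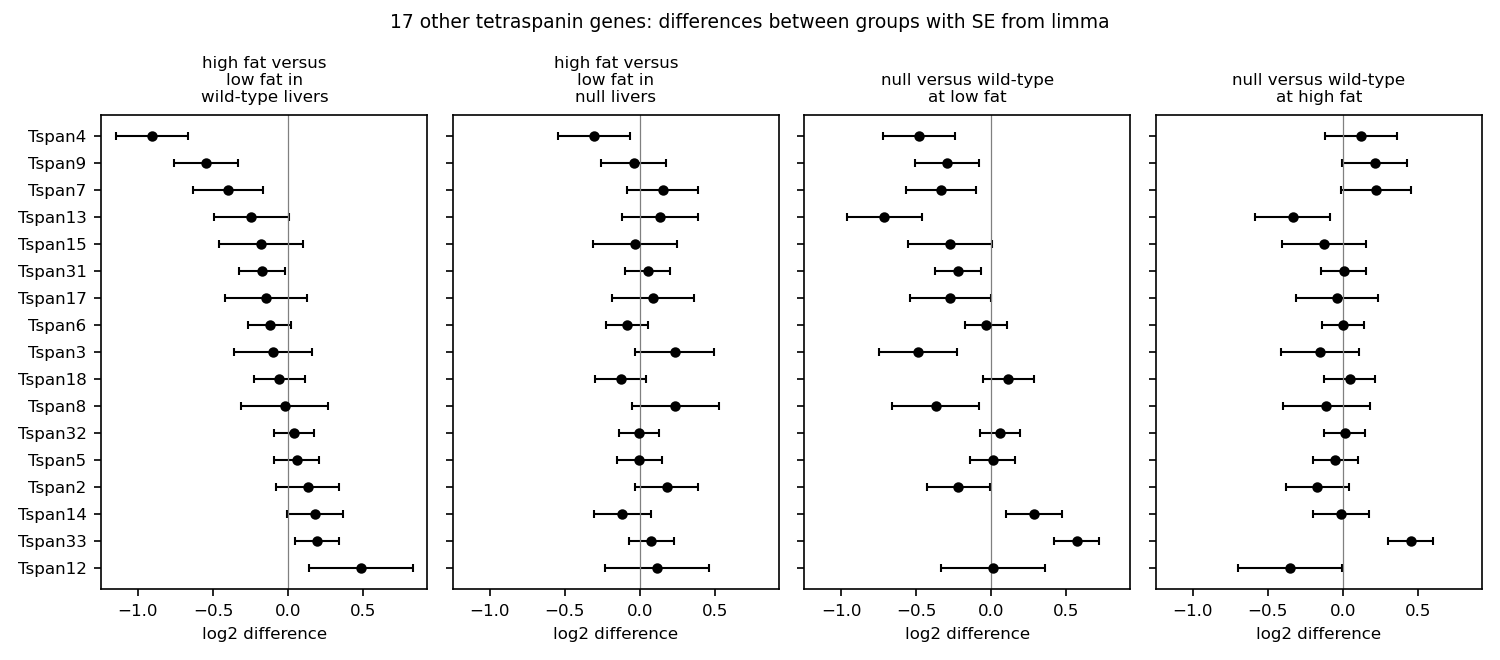
The log2 differences of 17 other tetraspanin genes are plotted in 4 comparisons, as points with their SE from limma, in the order of the wild-type diet difference. Tspan4 has the lowest diet difference in wild-type livers, -0.91, and Tspan33 the highest genotype differences, 0.57 at low fat and 0.45 at high fat; none passed the adjusted threshold.

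The proteins that tetraspanins hold together and the machinery that sorts them into vesicles were measured as well. Of 20 listed partners 18 were measured, and of 26 genes of endosome and vesicle sorting all 26 were. In both lists 0 genes passed limma's adjusted threshold in any of the 5 comparisons, and 1, 0, 1, 1 and 0 of the partners and 2, 0, 4, 1 and 0 of the sorting genes had an unadjusted p under 0.05, in the order used for the tetraspanins and against the same shares of all genes (4.02%, 1.91%, 7.2%, 2.58% and 0.899%). The medians of the partners were -0.13 for diet in wild-type, 0.02 for diet in null, -0.14 for genotype at low fat and -0.01 for genotype at high fat.

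Among the partners the lowest genotype difference was that of Cd36, the fatty acid translocase that Cd9 can bind, at -2.55 at low fat (SE 0.62, limma, unadjusted p = 0.00173, adjusted p = 0.306). At high fat it was -1.57 (unadjusted p = 0.0282, adjusted p = 1). Among the sorting genes Sdc4, a syndecan whose tail binds the sorting adaptor syntenin, was higher in null livers at low fat by 1.13 (SE 0.23, limma, unadjusted p = 0.000453, adjusted p = 0.178) and at high fat by 0.63 (unadjusted p = 0.0201). Neither gene passed after adjustment.

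Over the 12 arrays, the genes whose log2 ratios followed those of Cd9 most closely were Tmem51 (Pearson r = 0.95), Trip6 (0.94), a LIM-domain adaptor, H6pd (0.92), which makes NADPH in the endoplasmic reticulum, Pitpnm1 (0.91), a phosphatidylinositol transfer protein, Tspan4 (0.90) and Gpi1 (0.90), the glucose phosphate isomerase of glycolysis. These are the highest of 12448 genes with a plain symbol. Among the most opposed were Cyp2c54 (-0.92), a cytochrome P450 with near-identical relatives that its probe may not separate, and Hdac11 (-0.90), a histone deacetylase. Cyp2c54 had mean log2 ratios of 0.30, 1.73, 2.73 and 2.80 in wild-type low-fat, null low-fat, null high-fat and wild-type high-fat livers, which is the order of the Cd9 groups reversed. These values describe arrays that share 1 reference pool and 4 groups. Over deviations from group means r was 0.79 for Tmem51 and -0.89 for Cyp2c54. The Cd9 deviations were widest in wild-type low-fat livers (SD 0.43, against 0.11 to 0.17 in the other groups), where array 1 stood apart. An r over deviations therefore leans on that array. Without it, r over the log2 ratios themselves was 0.91 for Tmem51 and -0.90 for Cyp2c54.

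Within the family, the r with Cd9 over 12 arrays was 0.74 for Cd63, 0.65 for Cd151, 0.19 for Cd37, 0.12 for Cd81, 0.07 for Cd53 and -0.19 for Cd82. Without wild-type low-fat array 1 the value for Cd63 was 0.51 and that for Cd151 was 0.65. For Tspan9 it was 0.74 with that array and 0.51 without it.

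Markers of other liver cells were lower in some of the same comparisons. In wild-type livers 11 of 11 measured Kupffer cell and macrophage markers, 6 of 6 pan-leukocyte markers and 6 of 6 bile duct markers had a lower mean on high fat, with medians of -0.39, -0.45 and -0.14. Of these 0 passed limma's adjusted threshold, and 0, 1 and 0 had an unadjusted p under 0.05. Over all genes the shares were 0.00671% and 4.02%, and the median was 0.01. Also lower in wild-type livers were 2 of 2 neutrophil (median -0.50), 3 of 4 B cell and 4 of 5 platelet and megakaryocyte markers. Higher there were 5 of 7 hepatocyte, 4 of 6 T and NK cell, 4 of 7 stellate, 3 of 7 endothelial and 1 of 2 adipocyte markers. The mean of the Kupffer cell list per array ranged from -1.51 to 0.29 in wild-type low-fat, from -1.50 to -0.33 in wild-type high-fat, from -0.94 to -0.57 in null low-fat and from -0.97 to -0.41 in null high-fat livers, and these 4 ranges overlap. The pan-leukocyte means ranged from -0.77 to 0.28, from -0.997 to -0.50, from -1.10 to -0.57 and from -1.13 to -0.25 in that order. In the Kupffer cell, pan-leukocyte and bile duct lists, wild-type low-fat array 1 exceeded arrays 2 and 3 on average by 1.14, 0.73 and 0.88. Marker counts that compare with wild-type low-fat livers therefore rest in part on that array. In null livers, where Cd9 was lower on high fat, 8 of 11 Kupffer cell and macrophage markers and 4 of 6 pan-leukocyte markers had a higher mean on high fat, with medians of 0.16 and 0.03. In the same comparison the 2 measured neutrophil markers and the 2 measured adipocyte markers had a lower mean on high fat, with medians of -0.65 and -0.96. Between genotypes at low fat, Cd9, Cd63 and Cd151 were lower in null livers. So were the means of 10 of 11 Kupffer cell and macrophage, 6 of 6 pan-leukocyte, 6 of 6 bile duct and 2 of 2 adipocyte markers. Their medians were -0.22, -0.47, -0.23 and -1.01. Of these 0 passed limma's adjusted threshold, and 0, 1, 1 and 1 had an unadjusted p under 0.05. Over all genes the shares were 0.0201% and 7.2%, and the median was -0.01. Also lower were 3 of 4 B cell, 4 of 6 T and NK cell, 4 of 5 platelet and megakaryocyte, 4 of 7 endothelial and 5 of 7 stellate markers. Higher in null livers were 5 of 7 hepatocyte (median 0.306) and 2 of 2 neutrophil markers (median 0.215). The part of these markers in the tetraspanin differences was not tested.

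**Figure D5:**
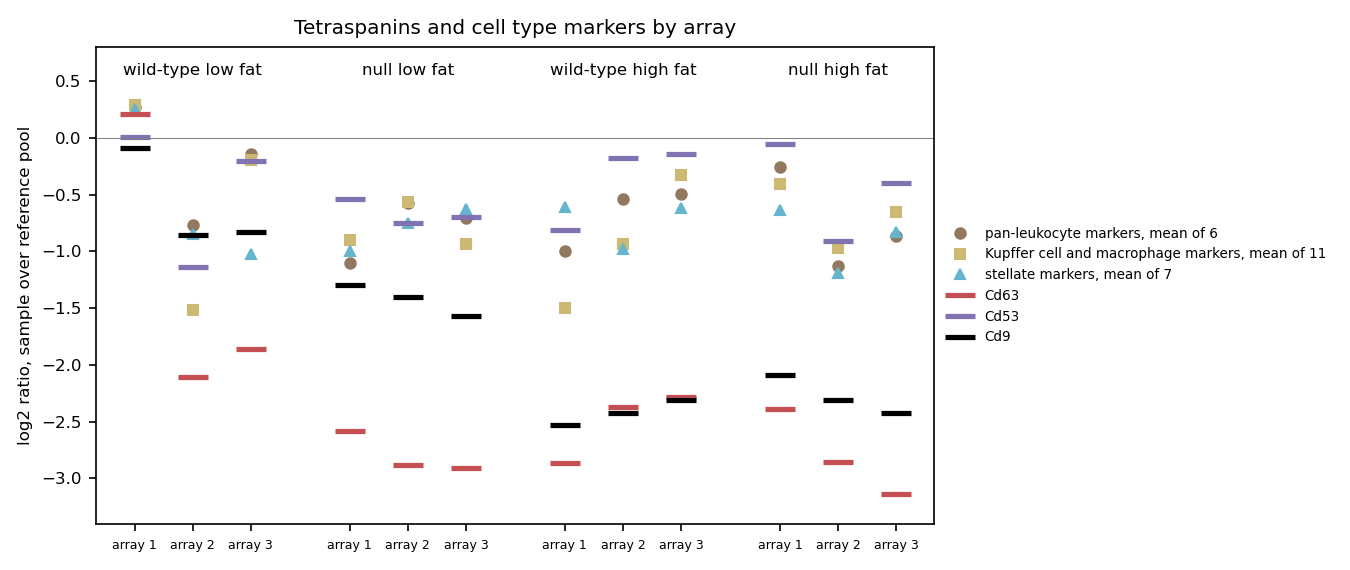
Short bars give the log2 ratios of Cd9, Cd63 and Cd53 on each array, and points the mean log2 ratio of the pan-leukocyte, Kupffer cell and macrophage, and stellate marker lists. On wild-type low-fat array 1 all 6 values lie between -0.09 and 0.29, with Cd9 the lowest. Cd9 also lies below each marker mean on all high-fat arrays and on all null low-fat arrays.

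The authors' deposited table, whose values equal differences computed from the scanner software's processed signals, gives Cd9 log2 ratios of -2.09 for the diets in wild-type livers, -0.82 for the genotypes at low fat and 0.02 for them at high fat. For Cd63 the authors' deposited table has -1.39, -1.65 and -0.52 in that order, and for Cd151 -0.28, -0.27 and 0.03. Those signs are the same as in the present values for these 3 genes. For the dim Cd37 probe A_52_P463373 the authors' deposited table has 0.80 for the genotypes at low fat, where the present difference was 0.05.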

How the data were processed

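Liver RNA was measured on 12 two-colour arrays in 4 groups of 3. The deposited intensities are mean pixel signals and median local backgrounds per spot and channel, which per the file headers come from Agilent's Feature Extraction (spot analysis version 9.1.3.1). Per those headers, the deposited log10 ratio of a spot is Cy5 over Cy3 in that software's processed signals. The authors' deposited table holds log2 ratios between group means, for which the submitters' processing notes name limma with no version. Per the labels' protocols, the amount of RNA decided which of 2 labelling kits was used, and the kit of each sample is not stated there. All samples carried the same dye, and a dye effect on the ratios was not tested.

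From the intensities, limma 3.58.1 in R 4.3.3 computed log2 ratios of Cy3 over Cy5 after normexp (offset 50) and loess within arrays, leaving out 120 spots not uniform. Probes (21490 of 41174) counted as measured if some group had the sample channel well above background on all 3 arrays, and the brightest such probe stood for a gene (14911 genes). The limma fit, tested on simulated data, had a mean for each group over all 12 arrays, with 8 residual and 3.16 prior degrees of freedom. P-values were adjusted by Benjamini-Hochberg over the 14911 genes, with 0.05 as the threshold. The members, lists and comparisons were chosen with earlier results of these data known. Named genes were the 7 members, Cyp1b1, the 6 genes with the highest and 3 with the lowest r to Cd9, and for each list the 2 with the smallest p, of which examples are printed and 1 is not reported here; Tspan9 was named after its values were seen. Probes were named by RefSeq accession (24836), current symbol (6051), older symbol (1809) or the name in the files (8478).

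Slides and scans come from the file headers: slides 1 and 2 were scan 1, slide 3 scan 2 and slide 4 scan 3. Same-numbered wild-type arrays of both diets shared a slide, and their deviations from group means correlated at 0.33, 0.34 and 0.46, so the numbers pair them. Over all 18 same-numbered pairs of groups the median was -0.015, and the numbers pair no other comparison. Between arrays of different groups the median was 0.46 on the same slide, 0.378 in the same scan and -0.18 across scans. Slide 2 held only null low-fat arrays, and slide 4 (scan 3) only wild-type arrays. Genotype therefore cannot be fully told apart from slide and scan, nor diet in null livers from slide. The alternatives changed background, normalisation, channel, filter, probe choice, blocks, spread and arrays. The number of arrays limits the precision, and arrays have no counting depth.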

Additional observations from a re-analysis of the deposited data

How the results depend on the processing

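The count of members past limma's threshold for diet in wild-type livers rests on the comparison that chose Cd9 and is a description; it was 1 and became 0 with median centring, without a filter on dim probes, with scan as a block, with the replicate block, with a trended and robust spread and with only the 2 groups compared; leaving out 1 array gave 0 to 1, with 1 only without wild-type low-fat array 1. Under the other planned settings it was 1. The cause was not tested, except that the last setting used fewer arrays and the unfiltered one tested 27975 genes. In the other comparisons the count was 0 under every setting run. The replicate block changed no other call: Cd9 in null livers was -0.85 with it (limma adjusted p = 1). Of 833 values of single members under other settings, 60 changed sign, 6 of them a tested difference that moved by more than the spread between arrays: Cd81 in null livers to 0.157, for genotype at high fat to 0.047 and for the interaction to 0.040, all in the sample channel alone; Cd37 in null livers to 0.156 with Agilent's processed signals; and, with median centring, Cd151 for genotype at low fat to 0.196 and Cd81 for genotype at high fat to 0.087. Median centring moved the median of all genes by 0.13 for diet in wild-type livers, 0.33 for genotype at low fat and -0.21 for the interaction. Over all settings the number of genes called ranged from 0 to 5 for diet in wild-type livers, 0 to 3 in null livers, 0 to 51 for genotype at low fat and 0 to 50 at high fat. Dim probes (Cd53 and Cd37) lie close to background. The Cd37 ratios had little range, from -0.047 to 0.36, while those of Cd53 ran from -1.141 to 0.005. The lowest Cd53 ratio was on wild-type low-fat array 2, where its probe was not well above background.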
